A study of Homo sapiens with 12 samples.

Results

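Potassium channel subunit genes were described after loss of FMR1 in SH-SY5Y, a widely used cell line derived from a human neuroblastoma and resembling young sympathetic neurons. The members were taken by symbol: every gene of the pore-forming families KCNA to KCND, KCNF to KCNH, KCNJ, KCNK, KCNMA, KCNN, KCNQ, KCNS to KCNV, and the auxiliary families KCNAB, KCNE, KCNIP and KCNMB. This rule used no measured value, although it was chosen with earlier results of these data known, and found 95 of 59087 features of the count table. Poly(A) RNA was sequenced from FMR1-knockout (KO) cells and from wild-type (WT) cells, each grown for 2 weeks in SILAC medium of the heavy or the light kind, which differ in the isotopes of arginine and lysine. The KO groups hold 3 lines that were made independently and carry the numbers 1 to 3, and every line was sequenced once per medium. The WT groups hold 3 libraries per medium, which carry a number but no statement of separate derivation, so that the spread among them may be technical. All 12 libraries come from 1 parental cell line, and the position of the edit in FMR1 and the clonal history of the lines are not given in the sources that were used. What FMR1 loss did and what deriving a line did cannot be told apart, and in bulk RNA fewer cells of a type and less RNA per cell cannot be told apart.

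Potassium channels let potassium leave or, for inward rectifiers, enter the cell, and so set the resting potential and the shape and spacing of action potentials. Voltage-gated (Kv) subunits open on depolarisation, Slo channels on calcium or sodium, inward rectifiers (Kir) at negative potentials, and tandem-pore (K2P) channels carry background current. Auxiliary subunits such as Kv beta, KChIP, KCNE and BK beta proteins change the gating or trafficking of the pore. FMRP, the RNA-binding protein made from FMR1, is lost in fragile X syndrome. In rodents it has been linked to several of these channels, through their mRNAs and through direct contact with channel proteins.

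The libraries held between 25935152 and 40257027 counts. FMR1 itself averaged 12.4 ± 5.29 CPM in KO and 37.7 ± 2.17 CPM in WT (SD, n = 6 each; log2 fold change -1.62, edgeR adjusted p = 0.00131), where CPM is counts scaled by the TMM library size. The heavy-medium library of line 1 stood nearest to WT, at 22.4 CPM of FMR1, so the counts of members called are also given without it. Some of the line 1 values that it moved are given without it too, but not all. Noradrenergic neuroblast markers were high in all libraries (HAND2 at 597 to 810 CPM in KO and 726 to 816 CPM in WT), although TH did not exceed 1.04 CPM in any. The 9 neuroblast markers summed to 6400 to 8690 CPM in KO and 8470 to 9450 CPM in WT, and GATA3 and DBH passed the test as lower. The 6 mesenchymal markers summed to 73.2 to 131 CPM in KO and 174 to 188 CPM in WT, with 3 lower and DCN at 0. The 6 glial markers summed to 2.01 to 6.03 CPM in KO and 2.03 to 2.84 CPM in WT, with 2 higher and SOX10 and GFAP at 0. Leukocyte and epithelial marker sums stayed under 2 CPM, endothelial markers were at or near 0, and the part of any of these shifts in the channel results was not tested.

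The cells carried a restricted set of channels. Of the 95 members, 48 had enough counts to be tested, 28 had counts but too few, and 19 were at 0 in every library. No member left untested exceeded 14 counts in a library or 82 counts over all 12. The EAG family and the KCNQ family were tested in full, with 8 of 8 and 5 of 5 members. Kir had 6 of 16 tested and K2P had 9 of 15. Shaker-type Kv1 channels had 1 of 8, and none of the 5 KCNE genes could be tested. Among the genes at 0 were KCNA1, KCNB2, KCND2, KCND3, KCNJ6 and KCNU1.

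**Figure D1:**
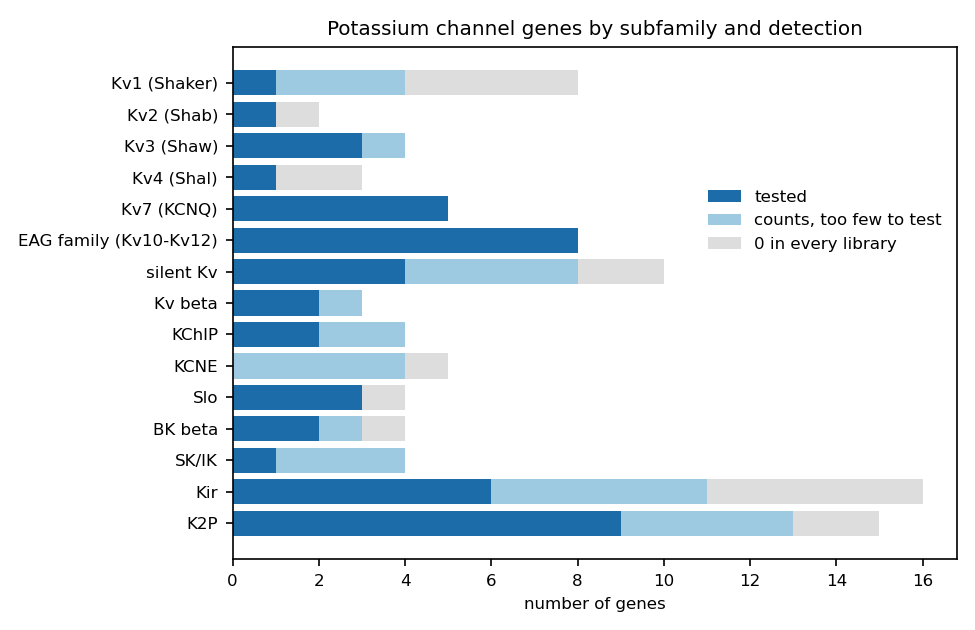
Number of potassium channel genes per subfamily, split into genes tested, genes with counts too few to test and genes at 0 in every library (x axis: number of genes). The EAG and KCNQ families are tested in full, and the KCNE family holds no tested gene.

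Levels between genes are compared as CPM per kb of annotated exon. KCNH2, the hERG channel of the EAG family, had the highest level, at 37.2 CPM per kb in KO and 34.5 CPM per kb in WT. KCNK1, a weakly inward-rectifying K2P channel, had 5.38 CPM per kb in KO and 8.18 CPM per kb in WT. The small-conductance calcium-activated channel KCNN1 had 5.45 CPM per kb in KO and 5.72 CPM per kb in WT, and the acid-sensitive K2P channel KCNK3 had 6.76 CPM per kb in KO and 5.55 CPM per kb in WT. Summed over its genes, the EAG family made up 39.8% of the members' level per kb in WT, the KCNQ family 13.9%, K2P 13.2% and Kir 9.11%. KCNH2 did not pass the test over both media, with a log2 fold change of 0.11 (adjusted p = 0.133). The members together summed to between 773.1 and 967.1 CPM in KO libraries and between 711 and 798.7 CPM in WT libraries, so the ranges overlapped.

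**Figure D2:**
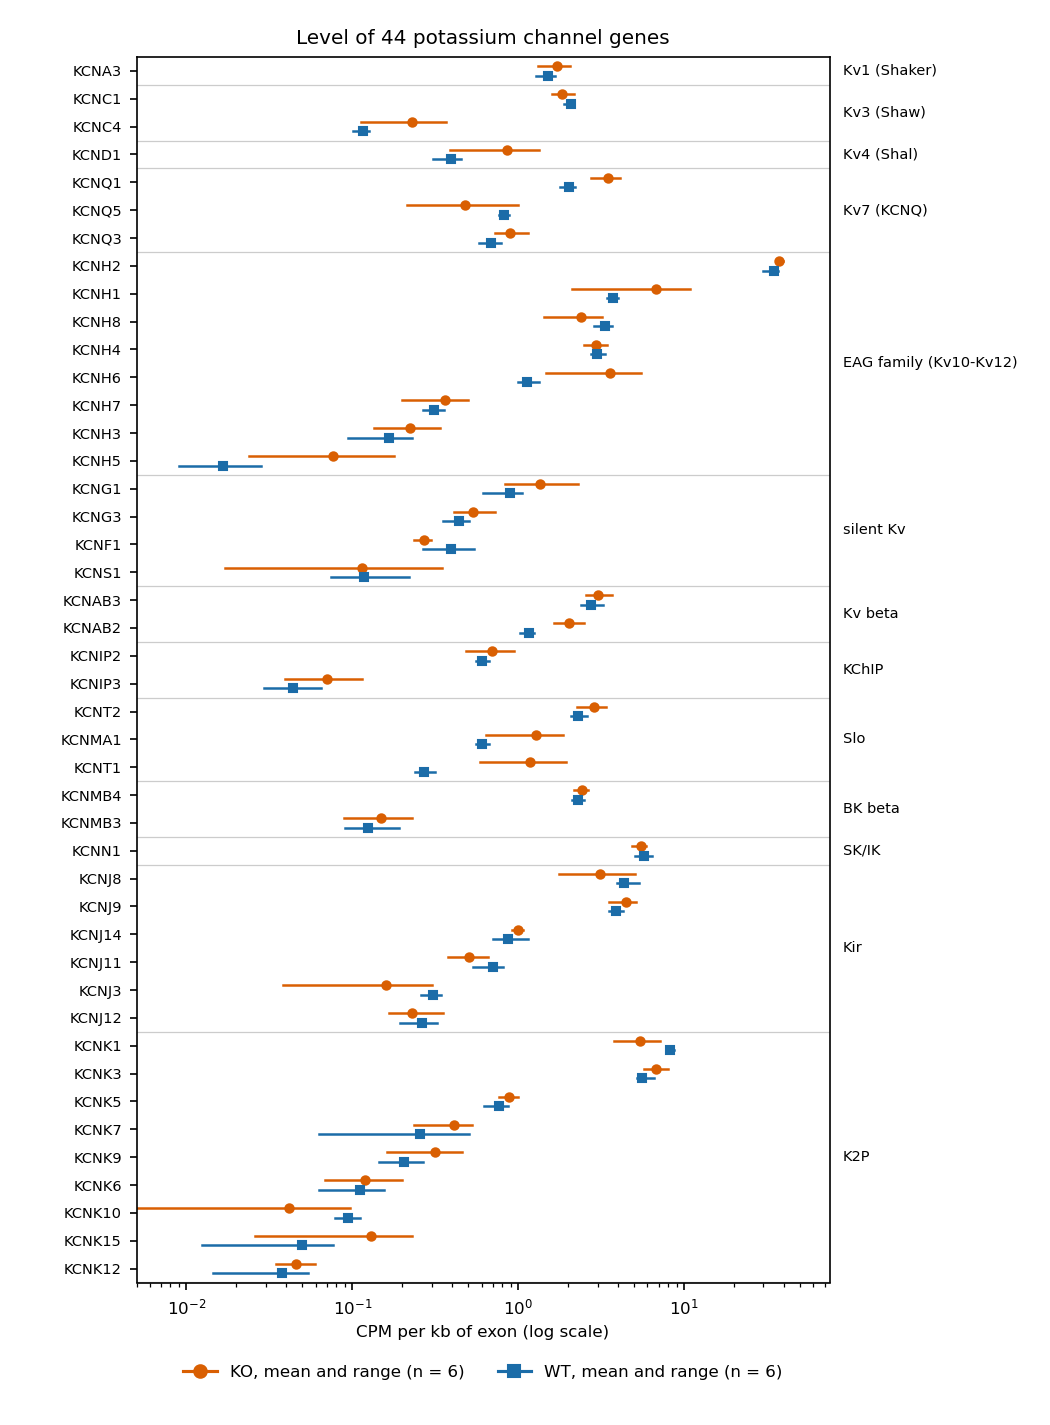
Level of 44 of the 48 tested genes as CPM per kb of exon on a log scale, grouped by subfamily and ordered by WT level; orange circles are KO means and blue squares WT means, with lines for the range over 6 libraries each. KCNH2 stands highest in both genotypes, while KCNT1, KCNQ1 and KCNAB2 show KO ranges above the WT range; the lower end of KCNK10 in KO runs off the axis.

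Over both media, 11 of the 48 tested members rose in KO and 3 fell, against 15% of all 16704 tested genes that rose and 9.78% that fell. In all, 29.2% of the tested members and 24.8% of all tested genes passed. The median log2 fold change of the tested members was 0.216, beside 0.003 for all tested genes. The risers were KCNT1, KCNH5, KCNH6, KCND1, KCNMA1, KCNC4, KCNAB2, KCNQ1, KCNQ3, KCNT2 and KCNK3, and KCNK1 and KCNH8 were among the fallers. For 6 of the 48 members every KO library lay outside the WT range of its medium, against 13.6% of all tested genes: KCNT1, KCNH6, KCNQ1 and KCNAB2 were above it (background 8.08%) and 2, KCNK1 among them, below (background 5.48%). On counts summed per line, which takes 3 KO lines and not 6 KO libraries as independent, KCNQ1 (adjusted p = 0.0372) and KCNAB2 (adjusted p = 0.0395) passed among 54 members tested, both as higher and with 0 lower, against 1.53% of all genes tested so (1.09% higher and 0.446% lower). The call over both media was lost on summed counts for the remaining 12 members, KCNT1 included (adjusted p = 0.073).

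The 3 KO lines did not move alike. Line 2 had 24 members higher and 10 lower than WT, where 22.9% of all tested genes were higher and 20.1% lower, 43% in all. Line 1 had 13 members higher and 9 lower, against backgrounds of 15.4% and 12.8%. Line 3 had 4 members higher and 1 lower, against backgrounds of 3.27% and 1.73%. The median log2 fold change of the members was 0.184 in line 1, 0.396 in line 2 and 0.015 in line 3, beside values between -0.000 and 0.005 over all tested genes. The test of the difference among the lines passed for 27 of the 48 members, against 23.2% of all tested genes. Without the heavy-medium library of line 1, line 1 had 12 members higher and 9 lower of 50 tested, against backgrounds of 14.8% and 12.5%, and 30 members differed among the lines, against 26.1%. Without that library the counts were 11 higher and 4 lower over both media (backgrounds 13.4% and 9.02%), 24 and 12 in line 2 (23.4% and 20.8%, 44.2% in all), and 6 and 3 in line 3 (4.22% and 3.3%). All 3 comparisons use the same 6 WT libraries.

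**Figure D3:**
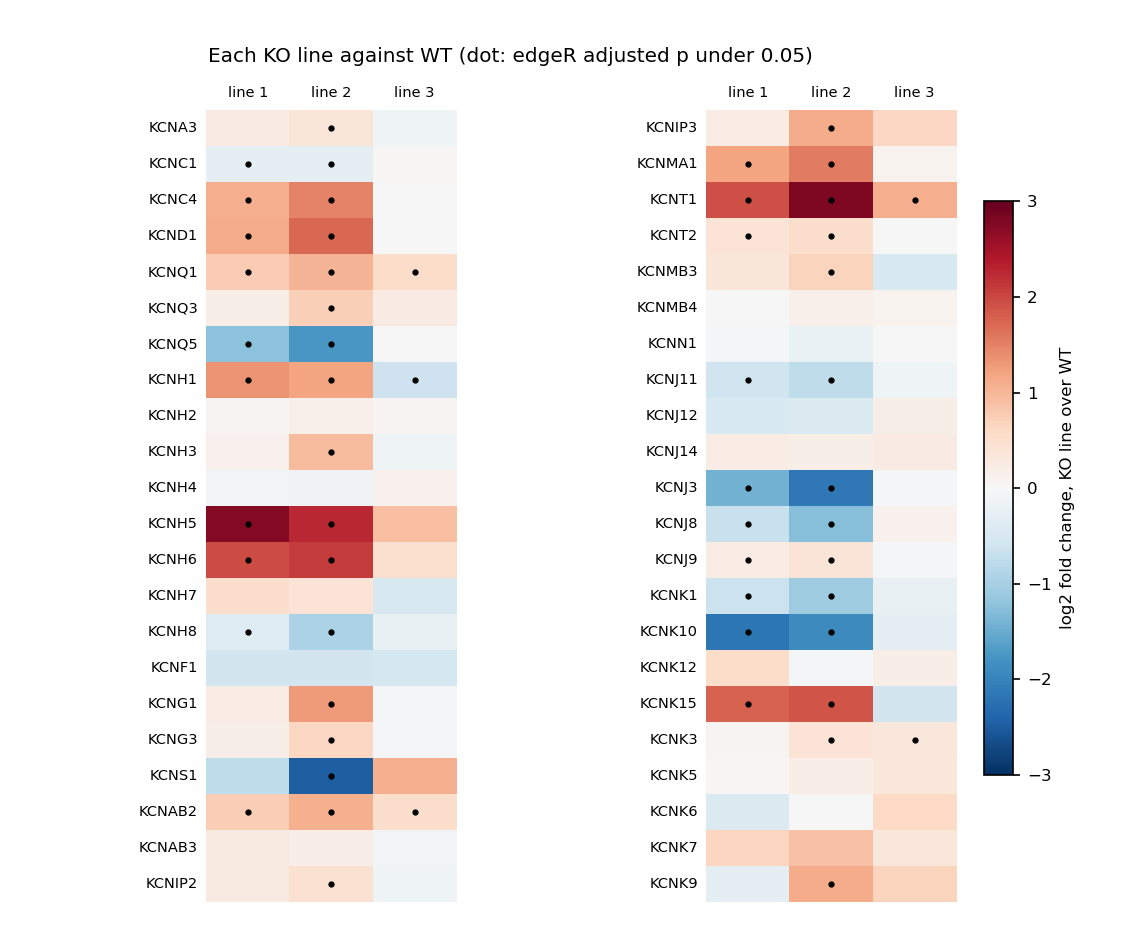
Log2 fold change of each KO line over WT for 44 of the 48 tested genes in 2 blocks of 22, colour-coded from blue (lower in KO) to red (higher in KO); a dot marks an edgeR adjusted p under 0.05. Line 3 carries 5 dots, on KCNT1, KCNQ1, KCNAB2, KCNK3 and KCNH1, the last of these in blue.

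The Slo family holds the large-conductance channels. Its 3 tested members rose over both media, in line 1 and in line 2, where 15%, 15.4% and 22.9% of all tested genes rose. KCNT1 (chromosome 9, 135702185 to 135795508, plus strand, GRCh38), which encodes the sodium-activated channel Slack, had 10.7, 23.6 and 7.13 CPM in KO lines 1, 2 and 3 in heavy medium and 14.8, 22.4 and 7.11 CPM in light medium. In WT it had 3.11, 3.13 and 3.81 CPM in heavy medium and 2.92, 3.56 and 3.29 CPM in light medium. Every KO library was above every WT library, and line 2 was highest and line 3 lowest in both media. The KO mean was 4.32-fold the WT mean, a rise of 2.11 on the log2 scale (SE 0.33, adjusted p = 0.00265). The log2 fold change was 1.94 (SE 0.118) in line 1, 2.79 (SE 0.113) in line 2 and 1.10 in line 3 (SE 0.128, adjusted p = 2.78e-05), and the lines differed (adjusted p = 6.56e-07). All 3 line calls and the call over both media held when any 1 library was left out.

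KCNMA1 (chromosome 10, 76869601 to 77638369, minus strand) encodes the pore of the calcium-activated BK channel. It had 38.9, 61.4 and 23.5 CPM in KO lines 1, 2 and 3 in heavy medium and 60.4, 66.1 and 22.9 CPM in light medium, against 21, 19.9 and 19.8 CPM in WT in heavy medium and 23.8, 21.4 and 23.8 CPM in light medium. Lines 1 and 2 stood above every WT library, whereas line 3 overlapped WT. The log2 fold change over both media was 1.07 (SE 0.278, adjusted p = 0.0218), made up of 1.19 in line 1, 1.56 in line 2 and 0.11 in line 3 (adjusted p = 0.612), with a difference among lines at adjusted p = 5.35e-07. The call over both media ended without line 2's heavy library (adjusted p = 0.0539), the light library of line 1 (0.0521) or of line 2 (0.0542), or light WT library 2 (0.0503). It also ended without line 1 (0.0794) or line 2 (0.114) as a whole and under limma-voom (0.0526). The calls in lines 1 and 2 held without any 1 library.

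KCNT2, the sodium-activated relative Slick, averaged 20.3 ± 3.35 CPM in KO and 16.2 ± 1.49 CPM in WT (SD, n = 6 each). It rose by a log2 fold change of 0.33 over both media (adjusted p = 0.0364), with 0.42 in line 1, 0.52 in line 2 and 0.00 in line 3. The call over both media was lost without any 1 of 9 of the libraries, at adjusted p between 0.0508 and 0.0896; it held without either library of line 3 or without heavy WT library 1. Without both libraries of line 1 it had 0.28 (0.146) and without those of line 2 0.22 (0.204). The call in line 1 ended without its light library (adjusted p = 0.06), and that in line 2 held without any 1 library.

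BK beta subunits tune the calcium sensitivity of KCNMA1 channels. KCNMB4, the neuronal beta subunit that binds FMRP in mouse, had 11.8 ± 0.796 CPM in KO and 11.2 ± 0.707 CPM in WT (SD, n = 6 each), with a log2 fold change of 0.08 (adjusted p = 0.424) and line values of -0.02, 0.16 and 0.10. KCNMB3 passed in line 2 alone of the single-line tests (log2 fold change 0.67, adjusted p = 0.0365), and that call was lost without line 2's heavy library (adjusted p = 0.647) or without heavy WT library 1 (0.0718) or 2 (0.064) or light WT library 1 (0.0618) or 2 (0.0564). With 1 library left out its line 2 value ran from 0.25 to 0.99. Of the annotated exon bases of KCNMB3, 37.9% lie under PIK3CA on the other strand, and whether counting used strand is not stated, so its counts are uncertain.

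**Figure D4:**
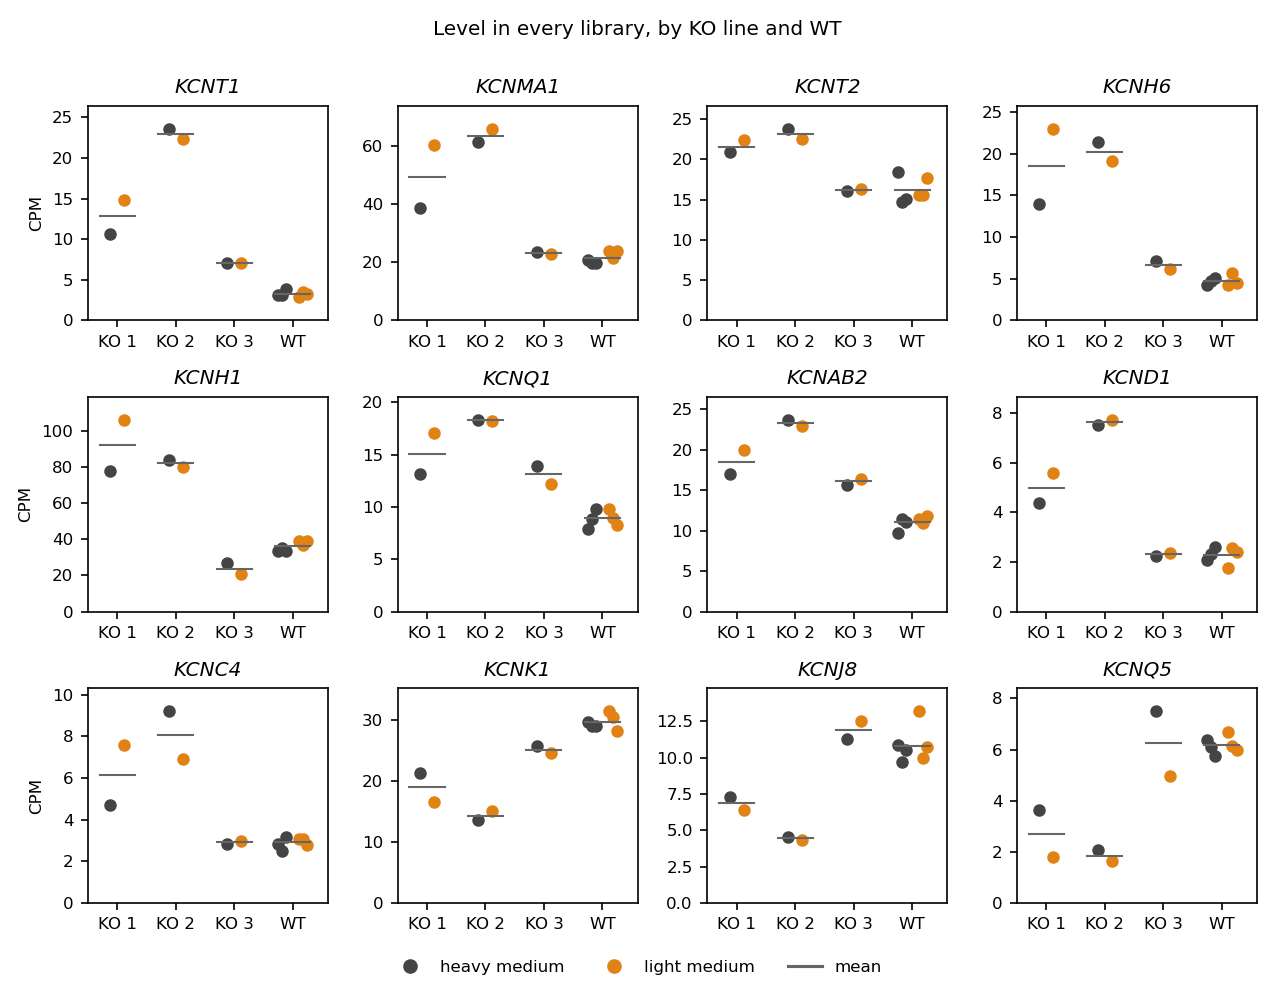
CPM of 12 members in every library, by KO line and in WT (black: heavy medium, orange: light medium, line: mean; y axis starts at 0). KCNT1, KCNH6, KCNQ1 and KCNAB2 lie above WT and KCNK1 below WT in every KO library, and for the other genes shown line 3 lies at or near WT or on the other side of it from lines 1 and 2.

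The EAG family includes the eag, erg and elk channels. KCNH6 (chromosome 17, 63523334 to 63548977, plus strand), an erg-type channel, had 14, 21.4 and 7.16 CPM in KO lines 1, 2 and 3 in heavy medium and 23, 19.1 and 6.21 CPM in light medium, against 4.23, 4.74 and 5.06 CPM in WT in heavy medium and 4.21, 5.64 and 4.45 CPM in light medium. All 6 KO libraries were above all 6 WT libraries, with lines 1 and 2 well above line 3. The log2 fold change was 1.67 (SE 0.332, adjusted p = 0.00725) over both media. By line it was 1.95 in line 1, 2.10 in line 2 and 0.49 in line 3, where it missed the threshold (adjusted p = 0.115), though it passed there without line 1's heavy library (adjusted p = 0.0147). KCNH5, another eag-type gene, was low throughout, at 0.946 ± 0.671 CPM in KO and 0.203 ± 0.0975 CPM in WT (SD, n = 6 each), and rose (log2 fold change 2.16, adjusted p = 0.00643). It passed in lines 1 (2.75) and 2 (2.25) and had 0.91 in line 3 (adjusted p = 0.353). KCNH5 was too low in WT to be tested from WT libraries alone. It entered the test through KO libraries, where it was high, so the filter on low counts favoured a rise. The call over both media was kept without that filter. The line 1 value was 3.31 without its heavy and 1.87 without its light library, and the line 3 value 0.14 without its heavy and 1.73 without its light library.

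The promoters of KCNT1 and KCNH6 are shown because these genes had the largest rises over both media among members averaging at least 1 CPM in KO. Each is the 250 bases before the RefSeq start on GRCh38.p14, KCNT1 at chr9:135701935-135702184 and KCNH6 at chr17:63523108-63523357, both on the plus strand; capitals mark the left and right parts of the RE1 motif, the element read by the repressor REST.
KCNT1: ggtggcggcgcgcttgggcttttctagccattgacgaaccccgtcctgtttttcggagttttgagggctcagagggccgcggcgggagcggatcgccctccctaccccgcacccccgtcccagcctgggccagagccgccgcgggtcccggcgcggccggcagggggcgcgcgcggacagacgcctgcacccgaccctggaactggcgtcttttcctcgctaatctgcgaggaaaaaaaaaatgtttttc
KCNH6: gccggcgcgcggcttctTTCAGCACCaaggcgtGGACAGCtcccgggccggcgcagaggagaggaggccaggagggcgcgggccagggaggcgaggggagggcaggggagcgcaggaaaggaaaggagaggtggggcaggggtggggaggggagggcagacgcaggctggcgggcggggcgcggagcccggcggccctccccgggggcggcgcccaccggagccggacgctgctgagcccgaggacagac
The left part searched was TTCAGCACC and the right part GGACAGC, on both strands, and neither overlaps the other. The KCNH6 window holds both with 7 bases between them, and the KCNT1 window holds neither. Of 35116 RefSeq promoter windows of this length, 0.288% hold the left part, 4.76% the right part and 0.0427% both. Of the tested members 30 had a window, 46 windows in all, and KCNH6 and KCNK3 held both parts. KCND1, KCNH5 and KCNK10 held the right part alone. Windows with both parts were counted at any distance and orientation, and the spacing in KCNK3 was not measured. Whether any of these matches is a working RE1 element was not tested. G and C made up 66.8% of the KCNT1 window and 77.6% of the KCNH6 window. KCNQ1 had no window in the table used, so its promoter was not searched.

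KCNH1 (chromosome 1, 210676823 to 211134180, minus strand), the eag channel found in many tumour cells, moved in opposite directions between the lines. It had 77.6, 84 and 26.7 CPM in KO lines 1, 2 and 3 in heavy medium and 106, 80.2 and 20.8 CPM in light medium, against 33.8, 35.3 and 33.8 CPM in WT in heavy medium and 39, 36.9 and 39 CPM in light medium. Lines 1 and 2 were above and line 3 below every WT library. The log2 fold changes were 1.34 (SE 0.0977, adjusted p = 1.27e-07) in line 1, 1.18 (SE 0.099, adjusted p = 2.04e-07) in line 2 and -0.61 (SE 0.113, adjusted p = 0.00451) in line 3, and the difference among lines had the smallest adjusted p of all members, 2.9e-07. Over both media KCNH1 did not pass (0.86, adjusted p = 0.124). The call in line 3 ended without its light library (-0.36, adjusted p = 0.0841), and the value was -0.89 without its heavy library. Of the KCNH1 exon bases, 36.9% overlap a transcript model on the other strand and 16.1% another coding model on its own strand.

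KCNH8, an elk channel, fell over both media to 14.7 ± 4.18 CPM in KO, against 20.6 ± 1.92 CPM in WT (SD, n = 6 each; log2 fold change -0.49, adjusted p = 0.041). It fell in lines 1 (-0.39) and 2 (-0.95) and had -0.22 in line 3 (adjusted p = 0.406). The call over both media was lost without any 1 of 10 of the libraries, at adjusted p between 0.0539 and 0.0928, and held without the heavy library of line 1 or the light library of line 3. It was also lost without a filter on low counts (0.112) and without line 1 (0.0667) or line 2 (0.0919) as a whole. The call in line 1, where the value was -0.66 without its heavy library, ended without its light library (-0.15, adjusted p = 0.639) or without heavy WT library 1 (0.0769) or 3 (0.0695) or light WT library 2 (0.0756) or 3 (0.0711). Of the other family members, KCNH3, also an elk channel, passed in line 2 alone of the single-line tests (0.95, adjusted p = 0.00757; lost without either library of line 2, 0.0816 and 0.0654). KCNH7, an erg channel, differed among the lines (adjusted p = 0.0128) with 0.52, 0.40 and -0.49 in lines 1, 2 and 3, none of which passed. KCNH4, an elk channel, had a log2 fold change of -0.02 over both media (adjusted p = 0.894).

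The KCNQ family carries slow, non-inactivating currents. KCNQ1 (chromosome 11, 2444684 to 2849110, plus strand), the pore of the cardiac slow delayed rectifier, had 13.1, 18.3 and 13.9 CPM in KO lines 1, 2 and 3 in heavy medium and 17.1, 18.2 and 12.2 CPM in light medium. In WT it had 7.92, 8.83 and 9.82 CPM in heavy medium and 9.82, 8.97 and 8.27 CPM in light medium. No KO library overlapped WT. The KO mean was 1.73-fold the WT mean (log2 fold change 0.79, SE 0.111, adjusted p = 0.000739), with 0.76 in line 1, 1.03 in line 2 and 0.54 in line 3 (adjusted p = 0.00527). The line 3 call was lost without its heavy library (adjusted p = 0.257). KCNQ1 shares 2.72% of its exon bases with the antisense transcript KCNQ1OT1.

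KCNQ3 and KCNQ5 encode subunits of the neuronal M-type channel. KCNQ3 had 11.3 ± 2.27 CPM in KO and 8.6 ± 0.952 CPM in WT (SD, n = 6 each) and rose (log2 fold change 0.40, adjusted p = 0.0337), with 0.18 in line 1, 0.72 in line 2 (adjusted p = 3.88e-05) and 0.24 in line 3. That call over both media was lost without either library of line 2 (adjusted p = 0.0794 for heavy and 0.0899 for light), heavy WT library 2 (0.084) or 3 (0.0709), or light WT library 1 (0.0611) or 2 (0.0709), and the value without line 2 as a whole was 0.20 (0.207). KCNQ5 had 3.64, 2.06 and 7.5 CPM in KO lines 1, 2 and 3 in heavy medium and 1.78, 1.62 and 4.98 CPM in light medium, against 5.76 to 6.39 CPM in WT in heavy medium and 5.99 to 6.67 CPM in light medium. It fell in line 1 (log2 fold change -1.22, adjusted p = 9.09e-05; -1.72 without its heavy library) and line 2 (-1.75, adjusted p = 1.97e-06) and had -0.01 in line 3, where the heavy library was above and the light library below WT.

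Among the fast Kv families, Kv3 subunits support rapid firing. KCNC4, an inactivating Kv3 channel, had 4.71, 9.2 and 2.84 CPM in KO lines 1, 2 and 3 in heavy medium and 7.58, 6.91 and 2.98 CPM in light medium, against 2.51 to 3.14 CPM in WT in heavy medium and 2.77 to 3.06 CPM in light medium. Lines 1 and 2 were above WT and line 3 lay within it. The log2 fold change of KCNC4 was 0.98 over both media (adjusted p = 0.025), with 1.08, 1.49 and 0.00 by line. Its call over both media was lost without the light library of line 1 (0.0619) or line 2 (0.0615) and without heavy WT library 1 (0.0506) or 2 (0.0561) or light WT library 1 (0.0504), 2 (0.0514) or 3 (0.0557). It was also lost without line 1 (0.0806) or line 2 (0.63, 0.114) as a whole, without a filter on low counts (0.0723) and under limma-voom (0.0732). The line 1 value was 1.41 without its heavy and 0.67 without its light library.

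KCNC1, whose mRNA is bound by FMRP in mouse, had 26.5 ± 3.29 CPM in KO and 29.8 ± 1.64 CPM in WT (SD, n = 6 each; log2 fold change -0.17, adjusted p = 0.105). It fell in line 1 (-0.28, adjusted p = 0.00791) and line 2 (-0.30, adjusted p = 0.00285) and had 0.03 in line 3; the line 1 call ended without its light library (0.12) and the line 2 call without its light library (0.0591). KCND1, an A-type Kv4 channel on chromosome X, had 4.36, 7.53 and 2.24 CPM in KO lines 1, 2 and 3 in heavy medium and 5.6, 7.72 and 2.37 CPM in light medium, against 2.06 to 2.62 CPM in WT in heavy medium and 1.77 to 2.57 CPM in light medium. Lines 1 and 2 exceeded WT, and line 3 lay within the WT range. Its log2 fold change was 1.11 over both media (adjusted p = 0.0242), 1.11 in line 1, 1.73 in line 2 and 0.00 in line 3. The call over both media was lost without the heavy (0.062) or light library (0.0569) of line 2, the light library of line 1 (0.0547), heavy WT library 1 (0.0529), or light WT library 1 (0.0568) or 3 (0.0515). It was also lost without line 1 (0.0783) or line 2 (0.66, 0.114) as a whole, without a filter on low counts (0.0703) and under limma-voom (0.0751).

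The only tested Kv1 gene, KCNA3, known from T lymphocytes, passed in line 2 (0.37, adjusted p = 0.0246) and lost the call without either library of line 2 (0.134 and 0.147) or heavy WT library 2 (0.0596), without a filter on low counts (0.0624) or under DESeq2 (0.085). Silent Kv subunits form no channel alone and modify Kv2 pores. Among them KCNG1 had 5.32, 11.2 and 4.78 CPM in KO lines 1, 2 and 3 in heavy medium and 6.03, 12.4 and 4.5 CPM in light medium, against 3.32 to 5.4 CPM in WT in heavy medium and 4.79 to 5.7 CPM in light medium. Line 2 stood above all other libraries (log2 fold change 1.27, adjusted p = 5.25e-07), with 0.22 in line 1 and -0.07 in line 3. KCNG3 also passed in line 2 (0.63, adjusted p = 0.00554; without its heavy library 0.162).

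KCNS1, another silent subunit, ranged from 0.0772 to 1.57 CPM in KO and from 0.338 to 0.999 CPM in WT. It fell in line 2 (log2 fold change -2.47, adjusted p = 0.00149; without its heavy library 0.0897), with -0.77 in line 1 (adjusted p = 0.171) and 1.06 in line 3 (adjusted p = 0.0595; 0.0425 without the heavy library of line 1). KCNF1 had a log2 fold change of -0.54 over both media (adjusted p = 0.0508).

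Kv beta and KChIP proteins are cytoplasmic partners of Kv1 and Kv4 pores. KCNAB2 (chromosome 1, 5991466 to 6101193, plus strand), a Kv1 beta subunit of the aldo-keto reductase fold, had 17, 23.7 and 15.7 CPM in KO lines 1, 2 and 3 in heavy medium and 20, 23 and 16.4 CPM in light medium. In WT it had 9.71, 11.5 and 11.1 CPM in heavy medium and 11.5, 11 and 11.8 CPM in light medium. The groups did not overlap, and line 2 was highest. Its log2 fold change was 0.80 (SE 0.105, adjusted p = 0.000581), a KO mean 1.74-fold the WT mean, with 0.73 in line 1, 1.07 in line 2 and 0.53 in line 3 (adjusted p = 0.000734). These calls held without any 1 library. KCNAB3, the more abundant Kv beta gene per kb, had 0.13 (adjusted p = 0.321). KCNIP2 and KCNIP3, the tested KChIP genes, passed in line 2, with 0.46 (adjusted p = 0.0334) and 1.11 (adjusted p = 0.00763), and both calls ended without the heavy library of line 2 (0.591 and 0.178); that of KCNIP2 also ended without heavy WT library 1 (0.0608) or 2 (0.0571) or light WT library 2 (0.0565) or 3 (0.0583), without a filter on low counts (0.0642) or under DESeq2 (0.127). The line 2 value of KCNIP2 was 0.19 without its heavy and 0.66 without its light library.

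Kir genes did not pass over both media, but some fell in lines 1 and 2. KCNJ8, the pore of a vascular-type ATP-sensitive channel, had 7.27, 4.54 and 11.3 CPM in KO lines 1, 2 and 3 in heavy medium and 6.42, 4.36 and 12.5 CPM in light medium, against 9.7 to 10.9 CPM in WT in heavy medium and 10 to 13.2 CPM in light medium. Lines 1 and 2 lay below WT. The log2 fold change was -0.66 in line 1 (adjusted p = 0.000416), -1.27 in line 2 (adjusted p = 3.28e-07) and 0.14 in line 3 (adjusted p = 0.54). KCNJ11, the pore of the pancreatic-type ATP-sensitive channel, had -0.60 in line 1 (adjusted p = 0.0328) and -0.77 in line 2 (adjusted p = 0.00674). The line 1 call of KCNJ11 ended without its light library (0.486), heavy WT library 3 (0.0556) or light WT library 2 (0.0653) or 3 (0.0587), and the line 2 call without its light library (0.0879). With 1 library left out its line 1 value ran from -0.88 to -0.35. KCNJ3, a G protein-gated subunit, had 0.814, 0.48 and 1.51 CPM in KO lines 1, 2 and 3 in heavy medium and 0.368, 0.193 and 1.52 CPM in light medium, against 1.32 to 1.73 CPM in WT. It fell in line 1 (-1.42, adjusted p = 0.000805; without its light library 0.0692) and line 2 (-2.15, adjusted p = 2.7e-05) and had -0.04 in line 3. The line 1 value was -2.02 without its heavy and -0.99 without its light library, and the line 2 value -2.92 without its heavy and -1.78 without its light library. Its G protein-gated relative KCNJ9 rose in line 1 (0.22, adjusted p = 0.0411) and line 2 (0.39, adjusted p = 0.000456), the line 1 call being lost without any 1 of 6 of the libraries, at adjusted p between 0.0587 and 0.274. KCNJ12 and KCNJ14, Kir2 channels, did not pass in any line; KCNJ12 has the near-identical copy KCNJ18, listed at 0, so its counts are uncertain.

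K2P channels carry background current. KCNK1 (chromosome 1, 233614004 to 233672512, plus strand) had 21.4, 13.6 and 25.8 CPM in KO lines 1, 2 and 3 in heavy medium and 16.5, 15.1 and 24.7 CPM in light medium, against 29.8, 29 and 29 CPM in WT in heavy medium and 31.5, 30.5 and 28.2 CPM in light medium. Every KO library was below every WT library. It fell by 0.61 on the log2 scale (SE 0.148, adjusted p = 0.0143), with -0.65 in line 1, -1.06 in line 2 and -0.23 in line 3 (adjusted p = 0.141; 0.0456 without the heavy library of line 1). Without line 1 as a whole, the call over both media was lost (0.0522). KCNK3 rose over both media to 42.1 ± 5 CPM in KO, against 34.5 ± 3.32 CPM in WT (SD, n = 6 each; log2 fold change 0.28, adjusted p = 0.0218), with 0.09, 0.41 and 0.33 by line. The call over both media ended without the light library of line 2 (0.0537) or light WT library 2 (0.0526) or 3 (0.0545) or without line 2 as a whole (0.107), and that in line 3 (adjusted p = 0.021) without its heavy library (0.44) or light WT library 2 (0.0525). KCNK9, also an acid-sensitive channel, rose in line 2 (1.11, adjusted p = 0.000177), with -0.26 in line 1 and 0.66 in line 3.

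Low-count K2P genes also separated the lines. KCNK10, a mechanosensitive TREK channel, had 0.32, 0.282 and 0.803 CPM in KO lines 1, 2 and 3 in heavy medium and 0.0283, 0.116 and 0.506 CPM in light medium, against 0.645 to 0.922 CPM in WT. It fell in line 1 (log2 fold change -2.17, adjusted p = 0.00181) and line 2 (-1.91, adjusted p = 0.00278), and the line 1 value was -1.34 and not called (0.0881) without its light library and -4.53 without its heavy one. The line 2 value was -2.58 without its heavy library and -1.59 without its light one. KCNK15, a TASK-related subunit, ranged from 0.0669 to 0.594 CPM in KO and from 0.0322 to 0.198 CPM in WT, passing as higher in line 1 (1.78, adjusted p = 0.00334; without its light library 0.158) and line 2 (1.89, adjusted p = 0.00144; without its heavy library 0.083). RIMS4, with far more counts, covers 19.5% of KCNK15 exon bases on the other strand, so these counts are uncertain. KCNK15 was also too low in WT to be tested from WT libraries alone. It entered the test through KO libraries, where it was high, so the filter on low counts favoured a rise. KCNK5, KCNK6, KCNK7 and KCNK12 did not pass in any line.

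Within single media the tests rested on 3 libraries a group. In heavy medium 0 of 47 members passed (edgeR; background 0.112%), although 14 had an unadjusted p under 0.05. In light medium KCNAB2 passed (log2 fold change 0.79, adjusted p = 0.0325), as 1 of 47 members against a background of 1.44%, and 15 had an unadjusted p under 0.05. By medium, the log2 fold change of KCNT1 was 2.04 in heavy and 2.16 in light medium, that of KCNQ1 0.77 and 0.81, that of KCNMA1 1.03 and 1.11, and that of KCNK1 -0.54 and -0.68. The media lay further apart for some members, KCNK10 at -0.70 in heavy and -1.82 in light medium and KCNQ5 at -0.48 and -1.15. Heavy against light medium over both genotypes called 0 of 48 members (edgeR; background 0%, 1 at an unadjusted p under 0.05), and the interaction of genotype and medium called 0 (background 0%, 0 at an unadjusted p under 0.05).

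Channel partners outside the symbol rule, and other transport genes, were described from lists drawn up with earlier results of these data known. Their counts beside the background are therefore descriptive only. Of 28 auxiliary and anchoring genes, 24 were tested, with 11 higher and 2 lower over both media (15% and 9.78% of all tested genes) and a median log2 fold change of 0.27 beside 0.00 for all tested genes. By line the counts were 11 higher and 5 lower for line 1 (backgrounds 15.4% and 12.8%), 15 higher and 5 lower for line 2 (22.9% and 20.1%), and 2 higher and 0 lower for line 3 (3.27% and 1.73%). The 4 with the smallest p were higher: LGI3, a secreted ligand at Kv1 complexes (1.72, adjusted p = 0.00497), CNTN2, a Kv1-clustering adhesion protein (0.73, adjusted p = 0.0084), DPP6, the Kv4 partner (0.76, adjusted p = 0.00863), and LRRC55, a BK gamma subunit. LRRC55 had 0.134 to 1.69 CPM in KO and at most 0.0741 CPM in WT (adjusted p = 0.00866), so its size cannot be given. It entered the test through KO libraries alone, where it was high, so the filter on low counts favoured a rise. Low-count genes counted as higher in either list can have entered in the same way.
Of 20 other potassium and cation transport genes, 14 were tested and 7 rose over both media with 0 lower, beside the same 15% and 9.78% of all tested genes. By line 6, 9 and 0 rose (backgrounds 15.4%, 22.9% and 3.27%) and 0, 2 and 0 fell (12.8%, 20.1% and 1.73%) in lines 1, 2 and 3. The smallest p belonged to the potassium-chloride cotransporter SLC12A4 (0.37, adjusted p = 0.00473) and the pacemaker channel HCN2 (0.58, adjusted p = 0.011). Among channels linked to FMRP, mostly in rodents, KCNT1 and KCNMA1 rose, KCNC1 and KCNMB4 did not pass over both media, and KCND2 was at 0 in every library.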

How the data were processed

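Poly(A) RNA was sequenced with TruSeq Stranded mRNA libraries, per the labels' protocols. Per the submitters' processing notes, the authors used bcl2fastq 2.19.0, STAR 2.7.0f, featureCounts of Subread 1.6.4, DESeq2 1.22.1 and R 3.5.1 with GRCh38.p13. The deposited values are raw counts of reads per gene, not normalised. Not given in the sources used here are the annotation release, the strand setting and how reads matching several genes were treated, which leaves overlapping, antisense and near-identical genes uncertain.

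From the counts, edgeR 4.0.16 in R 4.3.3 was fitted to all genes passing filterByExpr (TMM scaling, robust quasi-likelihood F test, Benjamini-Hochberg adjustment over all tested genes, threshold 0.05). KO was compared with WT over both media with medium as a covariate, each line with WT in 1 fit of medium and line, the lines with each other, each medium alone, heavy with light medium, and the interaction. CPM uses TMM-scaled library sizes, values are mean ± SD, and SE is derived from the F statistic. Exon lengths and positions came from GENCODE 29 on GRCh38, and promoters from RefSeq on GRCh38.p14. The tests were checked on simulated counts. Libraries held 25935152 to 40257027 counts, and 3 counts, the limit a count of 0 allows, correspond to 0.0741 to 0.116 CPM; such limits cover counting error only.

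Named members were those past 0.05 over both media, among lines or in a line, the highest member per kb of each subfamily, and FMRP-linked channels. Some genes are counted but not reported by name here. Members, lists and this rule were chosen with earlier results of these data known. Alternatives were RLE factors, other filters on low counts, libraries or lines left out, a replicate block, summed counts, limma-voom (limma 3.58.1), DESeq2 1.42.0, and the 6 KO libraries alone. KO libraries of the same number are the same line, per the labels (correlations of deviations 0.09, 0.62 and 0.66), and numbers did not pair KO with WT.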

Additional observations from a re-analysis of the deposited data

Results flagged for a closer look

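For 27 of the 48 tested members the difference among the 3 KO lines passed the test, against 23.2% of all tested genes. The test rested on 2 libraries a line with a spread shared by all 12 libraries, and adjusted p-values are from edgeR. Among those reported by name, the smallest were those of KCNH1 (2.9e-07), KCNMA1 (5.35e-07) and KCNT1 (6.56e-07). KCNJ8 (5.73e-06), KCND1 (1.19e-05), KCNG1 (3.19e-05), KCNH6 (3.52e-05), KCNQ5 (4.97e-05) and KCNK1 (9.37e-05) followed. Between these and 0.001 were KCNC4 (0.000122), KCNS1 (0.000287) and KCNJ3 (0.000591). The next were KCNK9 (0.0023), KCNAB2 (0.00231), KCNT2 (0.00462), KCNJ9 (0.00738) and KCNK15 (0.0088). The other values were 0.011 for KCNQ3, 0.0127 for KCNH8, 0.0128 for KCNC1, 0.0128 for KCNH7, 0.021 for KCNH5, 0.0235 for KCNK10, 0.0318 for KCNQ1 and 0.0415 for KCNMB3.

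The call among lines ended when 1 library was left out for KCNC1, KCNQ1, KCNQ3, KCNH5, KCNH7, KCNH8, KCNAB2, KCNMB3, KCNJ9, KCNK10 and KCNK15. Their highest adjusted p came without the light library of line 3 for KCNC1 (0.124), KCNH5 (0.38), KCNH7 (0.158), KCNMB3 (0.195) and KCNK15 (0.152), and without the heavy library of line 3 for KCNJ9 (0.0806) and KCNK10 (0.205). It came without the light library of line 2 for KCNH8 (0.164), and without the heavy library of line 2 for KCNQ1 (0.201), KCNQ3 (0.167) and KCNAB2 (0.0646). Fitted directions differed between lines for KCNH1, KCNS1 and further members, KCNH7, KCNK9 and KCNJ8 among them. KCNH1 had 1.34, 1.18 and -0.61 and KCNS1 -0.77, -2.47 and 1.06 on the log2 scale in lines 1, 2 and 3. For KCNS1 the values of lines 1 and 3 did not pass (edgeR adjusted p = 0.171 and 0.0595).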

How the results depend on the processing

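Counts of members called moved by more than 1.5 times under these alternatives; the percentages in brackets are the shares of all tested genes called in the same direction under the same alternative. Without a filter on low counts, 7 members (2.35%) were higher in line 3, 3 higher (2.03%) and 1 lower (0.645%) in heavy medium, and 2 higher (2.83%) and 1 lower (1.84%) in light medium. Without line 1 the count lower over both media was 1 (5.21%), without line 2 the count higher was 5 (6.44%), and without line 3 the counts were 22 higher (23.1%) and 11 lower (20.5%). On counts summed per line 2 were higher (1.09%) and 0 lower (0.446%). With limma-voom 7 were lower over both media (11.1%); with DESeq2 7 were lower over both media (11%) and 2 in line 3 (2.27%). With the replicate number as a replicate block, 8 were lower over both media (11.4%), 0 lower in line 3 (0.635%), 17 differed among lines (10%) and 0 were higher in light medium (0.681%); numbers did not pair KO with WT libraries (correlations -0.15 to 0.02).

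With 1 library left out, counts over both media ran from 5 to 17 higher and 2 to 10 lower, in line 1 from 9 to 15 and 3 to 10, in line 2 from 16 to 25 and 9 to 13, in line 3 from 2 to 6 and 1 to 3, and among lines from 19 to 30. In heavy medium they ran from 0 to 13 higher and 0 to 5 lower, in light medium from 0 to 15 and 0 to 10, and for medium and interaction they were 0 throughout. The shares of all tested genes moved as well. The 13 (9%) and 5 (4.61%) in heavy medium came without the heavy library of line 3. The 15 (20%) and 10 (18.4%) in light medium came without its light library. The 3 lower in line 1 (3.03%) came without its light library, and the 2 higher in line 3 (1.03%) without its heavy library. Shares at the other ends of the line ranges are not given here. Over both media the count higher was 5 (9.62%) without the light library of line 2, 6 (10.5%) without light WT library 2, 7 without the heavy library of line 2 (10.2%) or light WT library 1 (10.8%) or 3 (10.6%), and 17 (19.5%) without the light library of line 3; the count lower was 10 (15.5%) and 8 (14.6%) without the light and heavy library of line 3.

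In 21 cases a single named member changed sign, none of them called. With 1 library left out, KCNS1 over both media ran from -0.70 to 0.20 (0.02, 0.07, 0.10 and 0.01 among the values), KCNMB4 in line 1 from -0.09 to 0.05 and KCNAB3 in line 2 from -0.02 to 0.35. KCNS1 was 0.20 without line 1 and 0.39 without line 2. In line 3 the range was -0.54 to 0.05 for KCNH8, -0.05 to 0.25 for KCNMA1, -0.21 to 0.09 for KCNJ3 (0.14 with the replicate block), -0.22 to 0.05 for KCNAB3, -0.39 to 0.05 for KCNIP2, -0.27 to 0.01 for KCNA3, -0.19 to 0.05 for KCNG1 and -0.02 to 0.05 for KCNN1. The cause of these changes was not tested.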

Other observations

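The following values were chosen after they were seen. KCNH1-IT1, a transcript inside KCNH1, had log2 fold changes of 1.08 in line 1 (edgeR adjusted p = 0.000189), 0.54 in line 2 (0.0324) and -0.88 in line 3 (0.0318), and differed among lines (adjusted p = 6.46e-05). KCNH1 itself had 1.34, 1.18 and -0.61 in the same lines.

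Around KCNQ1, the antisense transcript KCNQ1OT1 fell to 3.13 ± 0.505 CPM in KO, against 4.84 ± 0.92 CPM in WT (SD, n = 6 each; log2 fold change -0.63, adjusted p = 0.00659), while KCNQ1 rose by 0.79. CDKN1C, a cell cycle inhibitor of the same cluster, fell (-0.35, adjusted p = 0.0158) and the transporter gene SLC22A18 rose (0.82, adjusted p = 0.0175). TSSC4 had 0.00 (adjusted p = 0.99). Of 32 tested genes within 1 Mb of KCNQ1, 6 rose and 5 fell, with a median of 0.08; of 30 around KCNT1, 3 rose and 2 fell, with a median of 0.02, and of 20 around KCNAB2, 3 rose and 0 fell, with a median of 0.06. Of all tested genes, 15% rose and 9.78% fell. These windows were picked from those of all members called over both media, and some others stood further from these shares. Of 36 tested genes around KCND1, 11 rose and 1 fell, and of 30 around KCNC4, 8 rose and 1 fell. Of 7 around KCNH8, 0 rose and 2 fell. Windows of the remaining called members are not given here.

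REST, the repressor that reads RE1 elements, fell over both media (log2 fold change -0.34, adjusted p = 0.0118), with -0.37 in line 1, -0.49 in line 2 and -0.17 in line 3 (adjusted p = 0.351). Over both media 9.78% of all tested genes fell. Any link between REST and the channel values was not tested. KCNS3, a silent Kv subunit with at most 13 counts in a library, entered the test when the heavy library of line 1 was left out. It then passed over both media as lower (log2 fold change -2.06, edgeR adjusted p = 0.0429). It entered through WT libraries, where it was high (0.165 to 0.362 CPM, against 0 to 0.234 CPM in KO), so the filter on low counts favoured a fall. On counts summed per line KCNS3 did not pass (-1.93, adjusted p = 0.121).

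The sulfonylurea receptor gene ABCC8, partner of KCNJ11, fell (-0.79, adjusted p = 0.0112). DPP10, the Kv4 partner related to DPP6, fell in line 1 (-1.97, adjusted p = 0.043) and rose in line 2 (1.61, adjusted p = 0.0159), with 0.17 in line 3 and a difference among lines at adjusted p = 0.0138.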
